A study of Mus musculus with 19 samples.

Results

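Dividing 3 is the name the depositors gave to 1 of 13 clusters of CD8 T cells, and the cells described here are all those carrying that cluster name in the deposited per-cell table. They number 1089 of 41099 cells, 977 from tumours and 112 from spleens. The cells come from C57BL/6J mice injected with A223, a squamous cell carcinoma line that the labels derive from C57BL/6. Tumours were digested with liberase and CD8 T cells were taken by flow sorting. The 9 expression libraries are 3 tumours labelled regressing (replicates 1, 2 and 3), 3 tumours labelled growing (replicates 1, 2 and 3), 2 spleens of the regressing state (replicates 2 and 3) and 1 spleen of the growing state (replicate 3). No other treatment or altered allele is given for any group, and age is not given. A 3′ capture kit was used for replicate 1 of both tumour states and a 5′ kit for the other 7 libraries, and only those 7 carry T cell receptor labels. The labels give 1 library per tumour or spleen but do not say whether libraries of the same number shared a mouse or a day, so each p-value measures the spread between these libraries.

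A T cell that meets its antigen leaves rest, copies its DNA in S phase, passes through G2 and divides in mitosis (M), and repeated rounds build a clone of cells that share 1 receptor. Mki67 (a proliferation antigen), Ccnb1 (cyclin B1) and Cdk1 (the kinase that cyclin B1 activates to start mitosis) are transcripts used to recognise cells in G2 and M. The receptor is a pair of alpha and beta chains, and the hypervariable CDR3 loop of each chain is the stretch by which a clone is recognised.

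Per-gene expression was not analysed here, so Mki67, Ccnb1 and Cdk1 could not be read in these cells, and the label was checked through the deposited cell-cycle scores and calls. An S score and a G2M score rate each cell for transcripts of the named phase, with 0 as the level of comparison genes. A cell is called G2M or S by the higher score if that score is above 0, and G1 if neither is. Of the Dividing 3 cells 904 were called G2M, 126 (11.6%) G1 and 59 (5.42%) S. By library, the share called G2M was 92.3%, 75.5% and 82.4% in regressing tumours 1, 2 and 3, and 86.3%, 83.2% and 88.1% in growing tumours 1, 2 and 3. In the spleens it was 90.6% and 84.0% in regressing replicates 2 and 3, and all 9 cells of growing replicate 3. Averaged over the 9 libraries with equal weight the share was 86.9%. G2M was therefore the leading call in each library, and regressing tumour 2 had the lowest share. In that library 15.7% of Dividing 3 cells were called G1 and 8.81% S.

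Dividing 3 differed from the other 2 clusters named Dividing in having S scores below 0. These clusters were drawn from the same transcripts that the scores summarise, so the contrasts between them are descriptions without a test. The median S score of Dividing 3 lay below 0 in all 9 libraries, from -0.065 in regressing spleen 2 to -0.049 in regressing tumour 1. In Dividing 1 the median S score was above 0 in each library, with 94.5% to 100% of cells called S. In Dividing 2 the S score was also above 0, and 42.9% to 60.5% of its cells were called G2M, 0% to 7.14% G1 and the others S. Both scores were above 0 in 85.7% to 100% of Dividing 2 cells, in 22.6% to 38.5% of Dividing 1 cells and in 0% to 17.8% of Dividing 3 cells. Dividing 3 thus had the highest share of G2M calls of the 3 clusters in each of the 9 libraries, without having the highest median G2M score.

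The median G2M score of Dividing 3 was 0.182, 0.121 and 0.280 in regressing tumours 1, 2 and 3, and 0.153, 0.149 and 0.310 in growing tumours 1, 2 and 3. It was 0.237 and 0.276 in regressing spleens 2 and 3, and 0.059 over the 9 cells of growing spleen 3. Replicate 3 held the highest tumour value in both states. In Dividing 2 the median ran from 0.349 to 0.639 and was above that of Dividing 3 in 9 of 9 libraries. Dividing 1 had a median slightly below 0 throughout.

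The scores of Dividing 3 were spread with most weight at the low end. When Dividing 3 cells were divided at scores of 0, 0.2 and 0.7, points chosen after the values were seen, 165 cells lay at or below 0 and 410 between 0 and 0.2. A further 294 lay between 0.2 and 0.7, and 220 (20.2%, 95% exact interval 17.9 to 22.7) above 0.7. Of all Dividing 3 cells 225 lay within 0.05 of the 0 point, 131 within 0.05 of 0.2 and 41 within 0.05 of 0.7. The ranges are divisions of the score, and whether they hold different kinds of cell was not tested. In Dividing 2 the middle range from 0.2 to 0.7 averaged 65.3% ± 1.23 over the growing tumours and 65.7% ± 7.38 over the regressing tumours (SD, n = 3 each). In Dividing 3 the same range averaged 24.5% ± 2.75 and 27.2% ± 6.78. In regressing spleens 2 and 3 the gap was narrower, with 48.3% and 50% of Dividing 2 cells in the middle range and 35.8% and 36% of Dividing 3 cells. Above 0.7 lay 45% and 35.9% of Dividing 2 cells in those spleens and 17.0% and 22% of Dividing 3 cells, so high scores were not particular to Dividing 3. Scores above 0.7 were found in 11, 34 and 49 Dividing 3 cells of regressing tumours 1, 2 and 3 and in 27, 38 and 38 of growing tumours 1, 2 and 3. The spleens held 9, 11 and 3 such cells, so each library had cells at the upper end.

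**Figure D1:**
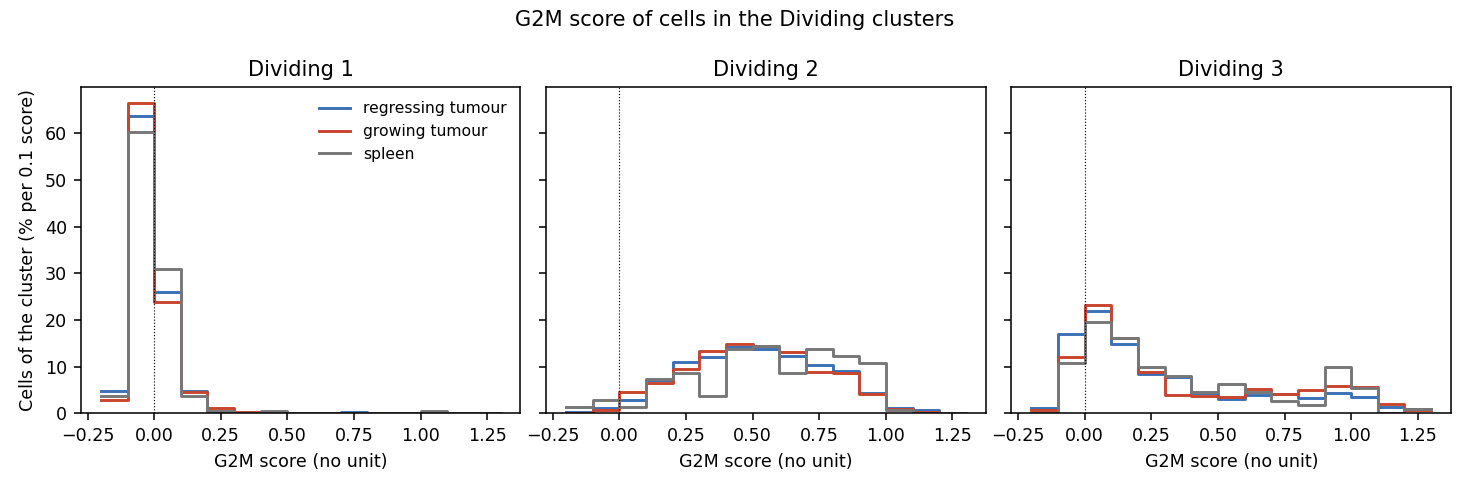
Distribution of the deposited G2M score (horizontal axis, no unit, bins of 0.1) in Dividing 1, Dividing 2 and Dividing 3, as percent of the cells of the cluster, with the cells of each group of libraries pooled. The dotted line marks a score of 0. Dividing 1 lies around 0, Dividing 2 spreads around a score of 0.5, and Dividing 3 has its highest bin between 0 and 0.1 with a second, lower rise near 1.

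Cells with a G2M score above 0.5 lay almost wholly in Dividing 2 and Dividing 3. Across all 41099 cells 1189 had a G2M score above 0.5, of which 307 (25.8%) were in Dividing 3, 872 in Dividing 2 and 10 in any other cluster. Above 0.8 there were 437 cells, 177 (40.5%) in Dividing 3 and 258 in Dividing 2. At that level the median S score was -0.071 in the Dividing 3 cells and 0.172 in the Dividing 2 cells. Further up, in bins of 0.1 and for growing tumours, regressing tumours and spleens in turn, the order changed. From 1 to 1.1 there were 25, 19 and 6 Dividing 3 cells against 7, 8 and 1 Dividing 2 cells. From 1.1 to 1.2 there were 9, 7 and 0 against 2, 6 and 0. From 1.2 to 1.3 there were 3, 5 and 1 against 0 in each group. The UMIs (unique molecular identifiers, each 1 counted transcript) of the Dividing 3 cells above 0.7 did not follow 1 order across libraries. Their median was the highest of the score ranges in 6 of 9 libraries, as in growing tumour 3 with 18150.5 UMIs against 14410 to 16191 in the lower ranges. In regressing tumour 1 it was 8750 within a range of 4385 to 9465, and in regressing tumour 2 (8427.5) and regressing spleen 2 (5054) it was below all lower ranges. The share of cells above 0.7 and the depth both differ between libraries, and the part of depth in the score was not tested.

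A G2M call alone did not mark Dividing 3. Of all cells called G2M, Dividing 3 held 33.8%, 27.0% and 25.4% in regressing tumours 1, 2 and 3 and 37.5%, 30.4% and 38.2% in growing tumours 1, 2 and 3. In the spleens it held 10.3%, 9.15% and 3.66%. The calls outside the clusters named Dividing made up 17.1% to 49.0% of G2M calls in tumours and 82.0% to 93.9% in spleens. Their median score was between 0.014 and 0.023 in each library, against 0.059 to 0.450 in Dividing 3 cells with the same call. Among non-dividing cells 2.96% to 6.50% were called G2M, which is the level such calls reach without a place in a Dividing cluster.

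In RNA content Dividing 3 stood between the non-dividing cells and the other dividing clusters. The median UMI count per Dividing 3 cell was 9092.5, 8791 and 9497 in regressing tumours 1, 2 and 3, and 9793, 11324.5 and 16096 in growing tumours 1, 2 and 3. It was 5901 and 9636 in regressing spleens 2 and 3 and 10477 in growing spleen 3. These medians were below those of Dividing 1 and of Dividing 2 in 9 of 9 libraries, at 0.711 to 0.971 times the Dividing 1 value and 0.577 to 0.952 times the Dividing 2 value. They were above the median of the non-dividing, non-naive cells of the same library in 9 of 9 libraries, by a factor of 1.17 to 1.82. The median number of genes detected ranged from 2012 in regressing spleen 2 to 3649 in growing tumour 3, below Dividing 2 in 9 libraries and below Dividing 1 in 8 of 9. The exception was growing spleen 3, with 2810 genes in 9 Dividing 3 cells and 2641 in Dividing 1.

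**Figure D2:**
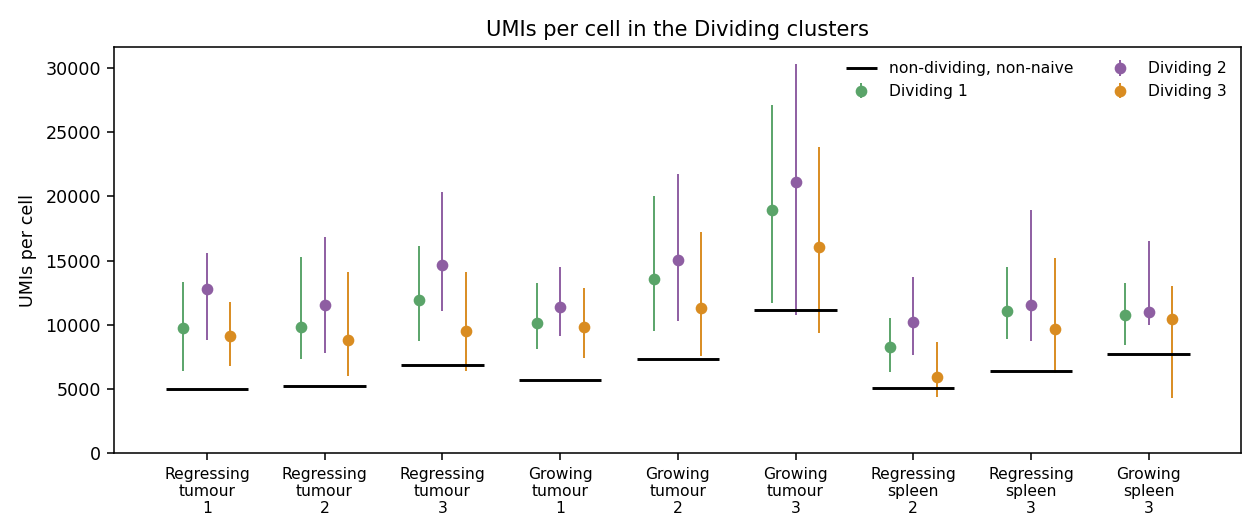
UMIs per cell (vertical axis, linear, from 0) in Dividing 1, Dividing 2 and Dividing 3 in each of the 9 libraries. Points are medians, vertical lines run from the lower to the upper quartile, and the black bar is the median of non-dividing, non-naive cells of the same library. The Dividing 3 point is the lowest of the 3 in each library and lies above the black bar.

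In these libraries Dividing 3 made up a larger share of the cells of growing than of regressing tumours. The cluster made up 3.14%, 3.33% and 3.04% of cells in regressing tumours 1, 2 and 3 (52, 261 and 221 cells), and 6.54%, 4.88% and 6.83% in growing tumours 1, 2 and 3 (117, 208 and 118 cells). Each growing library was above each regressing one, by 2.91 percentage points or 1.92 times on average. Of the 13 clusters 23.1% were higher in growing tumours without overlap and 7.69% lower. The clusters higher without overlap were Dividing 1, 2 and 3, so Dividing 3 shares this difference with both other dividing clusters, and the difference in means was larger in Dividing 2 (10.7% ± 1.47 against 4.70% ± 0.591, SD, n = 3 each, limma adjusted p = 0.0258 with the block). The exact permutation test gave p = 0.10, two-sided, the smallest that 3 libraries against 3 allow (adjusted p = 0.20 over the 2 share measures). In limma on logit shares across the 13 clusters the difference was 0.67 (SE 0.16) on the natural-log odds scale, with adjusted p = 0.0456, and 15.4% of clusters passed. With the replicate number as a block the adjusted p was 0.0532, so that call was lost. When cells were weighted to the same mix of UMIs per cell in every library the difference was 1.78 percentage points, with growing tumour 2 at 4.47% below regressing tumour 1 at 4.85%.

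Among dividing cells, no difference between the states was detected at this number of libraries. Of the cells in the 3 Dividing clusters Dividing 3 took 25.7%, 23.5% and 28.0% in regressing tumours and 24.8%, 23.6% and 25.5% in growing tumours. The means were 25.8% ± 2.28 and 24.6% ± 0.953 (SD, n = 3 each), the libraries overlapped and the exact permutation p was 0.50. The limma difference was -0.06 on the logit scale, with a 95% interval from -0.34 to 0.23, so a shift of moderate size in either direction is within the error. Its sign turned when cells were weighted to the same UMI mix, at 1.52 percentage points higher in growing tumours, and without regressing tumour 3, at 0.03.

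**Figure D3:**
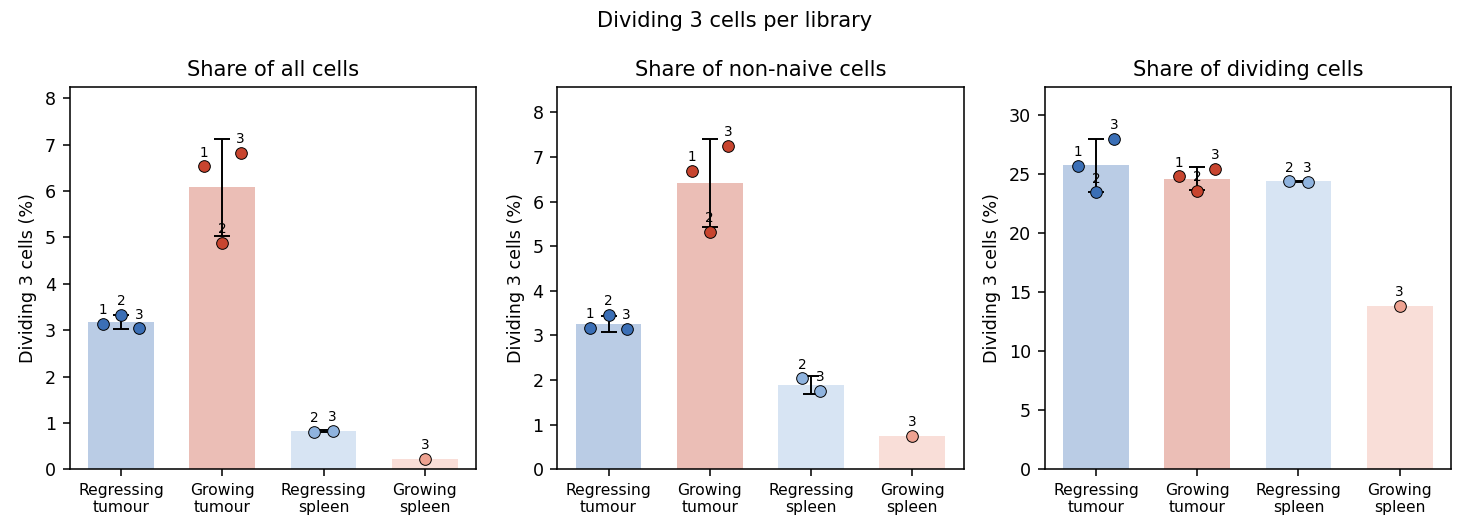
Dividing 3 cells as percent of all cells, of non-naive cells and of dividing cells, by group. Points are libraries with their replicate number, bars are group means and error bars are SD where a group has more than 1 library. Growing tumours lie above regressing tumours in the first and second panels and among them in the third, and spleens lie lowest in the first and second.

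Within Dividing 3, the cells of the 2 tumour states were compared on 6 measures, and none passed the threshold after adjustment. The share called G2M was 85.9% ± 2.51 in growing and 83.4% ± 8.46 in regressing tumours (SD, n = 3 each, exact p = 0.70). The mean of the library medians was 0.204 against 0.194 for the G2M score (exact p = 0.90), and the S scores overlapped as well (exact p = 0.70). Median UMIs were 12405 ± 3287 in growing and 9127 ± 354 in regressing tumours, without overlap (SD, n = 3 each, exact p = 0.10, adjusted p = 0.60 over the 6 measures). The difference of 3278 UMIs was 1432 without growing tumour 3. Set against the non-dividing, non-naive cells of the same library, the UMI ratio of Dividing 3 was 1.82, 1.68 and 1.38 in regressing tumours and 1.72, 1.55 and 1.45 in growing tumours, with the groups overlapping. The median UMIs of those non-dividing cells averaged 8033 ± 2786 in growing and 5705 ± 1024 in regressing tumours (SD, n = 3 each), with overlap. Genes per cell were 3070 ± 519 against 2630 ± 147 (SD, n = 3 each, exact p = 0.30). The mitochondrial share of UMIs was 1.85% ± 0.229 against 1.82% ± 0.176 (SD, n = 3 each, exact p = 0.90).

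Spleens held few Dividing 3 cells. The cluster made up 0.803% and 0.831% of cells in regressing spleens 2 and 3 (53 and 50 cells) and 0.228% in growing spleen 3 (9 cells). The 4 tumours made with the same 5′ kit held 4.52% ± 1.74, against 0.621% ± 0.340 in the 3 spleens (SD), and the libraries did not overlap. The exact permutation p was 0.0286, the smallest that 4 libraries against 3 allow, and 0.0857 when adjusted over 3 share measures. Of the 13 clusters 46.2% were higher in tumours without overlap. Naive cells fill much of the spleen libraries. Of non-naive cells Dividing 3 took 2.04%, 1.75% and 0.755% in the spleens and 4.79% ± 1.90 in the 4 tumours (SD), again without overlap (exact p = 0.0571, adjusted p = 0.0857).

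Of the dividing cells of the spleens 24.4%, 24.4% and 13.8% were in Dividing 3, against 25.2% ± 2.13 in the 4 tumours (SD, exact p = 0.229). The growing spleen, with 9 Dividing 3 cells of 65 dividing cells, was the low one, and without it the tumour excess was 0.75 percentage points in place of 4.27. Within Dividing 3 the G2M-called share was 82.3% ± 5.21 in tumours and 91.5% ± 8.04 in spleens (SD, exact p = 0.143). Scores, UMIs and genes overlapped between the tissues, with exact p-values from 0.343 to 0.771. The mitochondrial share of UMIs was higher in spleen, with library medians of 2.60%, 2.37% and 2.63% against 2.01%, 1.67%, 2.11% and 1.68% in regressing tumours 2 and 3 and growing tumours 2 and 3. The exact permutation p was 0.0286, and 0.171 after adjustment over 6 measures. The other dividing clusters had the same order without overlap, with 2.89% ± 0.170 in spleens and 1.92% ± 0.195 in tumours in Dividing 1, and 2.48% ± 0.102 and 1.89% ± 0.207 in Dividing 2 (SD), so this was not particular to Dividing 3. The growing state has a spleen library for replicate 3 only, so the states were not compared within spleen.

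Receptor labels covered 131, 159, 165 and 88 Dividing 3 cells of regressing tumours 2 and 3 and growing tumours 2 and 3. The share of cells labelled was 69.0% in Dividing 3 and 68.5% in non-dividing cells, averaged over the 4 libraries (exact sign-flip p = 0.75). Non-dividing cells, in this paragraph and the next, include the naive and NKT-like clusters. The depositors gave their larger clonotypes a name made of the CDR3 loops, and these are called named clonotypes, and gave receptors of like sequence a similarity group number. Of the labelled Dividing 3 cells 66.4%, 78.0%, 58.2% and 84.1% carried a named clonotype. In the non-dividing cells of the same libraries this was 61.4%, 78.0%, 49.96% and 73.7%. The share was higher in Dividing 3 in 4 of 4 libraries, by 5.92 percentage points ± 4.50 on average (SD), although by only 0.0194 in regressing tumour 3. The exact sign-flip p was 0.13 when rounded, the smallest that 4 libraries allow (adjusted p = 0.25 over 4 receptor measures). Against Dividing 1 and 2 together the excess was 2.78 percentage points, in 3 of 4 libraries (exact p = 0.25). Cells in a similarity group made up 45.8%, 67.9%, 63.0% and 58.0% of labelled Dividing 3 cells and 44.2%, 65.1%, 49.8% and 48.2% of non-dividing ones, again higher in 4 of 4 (exact p = 0.13). In Dividing 1 and 2 together the grouped share was 52.9%, 70.3%, 63.2% and 59.8%, above that of Dividing 3 in 4 of 4 libraries. The 2 growing tumours had the wider gaps to the non-dividing cells in both measures, with naive cells left in that reference.

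Dividing 3 drew on most of the named clonotypes. Of the named clonotypes in each library, 18 of 23, 16 of 18, 16 of 20 and 17 of 21 had at least 1 cell there. Among those with 10 or more cells it was 18 of 22, 16 of 17, 16 of 16 and 17 of 18. Nearly all clonotypes with a Dividing 3 cell also had cells in Dividing 1 or 2, so this breadth was not particular to Dividing 3. The clonotype with the most Dividing 3 cells, called the leading clonotype, was a different one in each library. In regressing tumour 3 the leader held 76 of 159 labelled Dividing 3 cells (47.8%), and the same clonotype was 42.4% of non-dividing cells. In growing tumour 2 the leader held 36 of 165 (21.8%) against 14.8% of non-dividing cells, and in growing tumour 3 it held 28 of 88 (31.8%) against 15.1%. These 3 clonotypes also led the non-dividing cells of their libraries. In regressing tumour 2 the leader was another clone than the largest one.

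The leading clonotype of regressing tumour 2 had 16 of its 92 cells in Dividing 3, or 17.4% (95% exact interval 10.3 to 26.7), where 3.13% of all labelled cells of the library lay. Of its 22 dividing cells 16 were in Dividing 3, against 24.9% of all labelled dividing cells of the library. Of the 16, 11 were called G2M, 3 S and 2 G1, and their median G2M score of 0.044 was at the low end for the cluster. The largest clonotype of the library, which belongs to similarity Group 1, had 10 of 560 cells in Dividing 3 (1.79%). Another, with the same number of Dividing 3 cells, had 10 of 225 (4.44%).

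In regressing tumour 3 the dominant clonotype had 76 of 2137 cells in Dividing 3 (3.56%), near the 3.22% of all labelled cells. The highest share there belonged to a smaller clonotype with 9 of 98 cells (9.18%, 95% exact interval 4.29 to 16.7) and 9 of its 17 dividing cells. Its alpha loop ends in the same 9 residues as that of the leading clone of regressing tumour 2, a likeness noticed after the values were seen. In regressing tumour 2 that leading clone, with 16 of 92 cells, is the only named clonotype with this ending. In regressing tumour 3 all such clonotypes together had 15 of 200 cells in Dividing 3 (7.50%), 9 of them from the smaller clonotype above. In growing tumour 2 they had 43 of 589 (7.30%), 36 of them from its leading clone. Of all labelled cells 3.13%, 3.22% and 5.19% lay in Dividing 3 in these libraries. The ending was defined by 2 of these clones, so the counts give it no independent support. The alpha ending is shared by clones with different beta loops, 1 of them present in both regressing tumour 3 and growing tumour 2, and the cells of a clone are not replicates.

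Among named clonotypes with 50 or more cells, of which the 4 libraries held 20, 16, 10 and 6, the share in Dividing 3 ran from 0% to 17.4% in regressing tumour 2, 0% to 9.18% in regressing tumour 3, 2.90% to 7.41% in growing tumour 2 and 3.64% to 11.2% in growing tumour 3. The medians were 2.80%, 2.10%, 5.73% and 6.78%. The interval of 4 of these 52 values lay above the share of all labelled cells of its library, and that of 0 lay below. The 4 were the leading clones of regressing tumour 2 and growing tumour 3, the clonotype at 9.18% in regressing tumour 3, and a clonotype of regressing tumour 2 with 8 of 89 cells (8.99%), singled out after its values were seen. The intervals cover counting error of 1 clone at a time and are not adjusted for 52 values. A further 4 clonotypes had 0 Dividing 3 cells, all in regressing tumours. The largest of them, also singled out afterwards, had 0 of 82 cells, which allows a share of up to 3.66%.

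**Figure D4:**
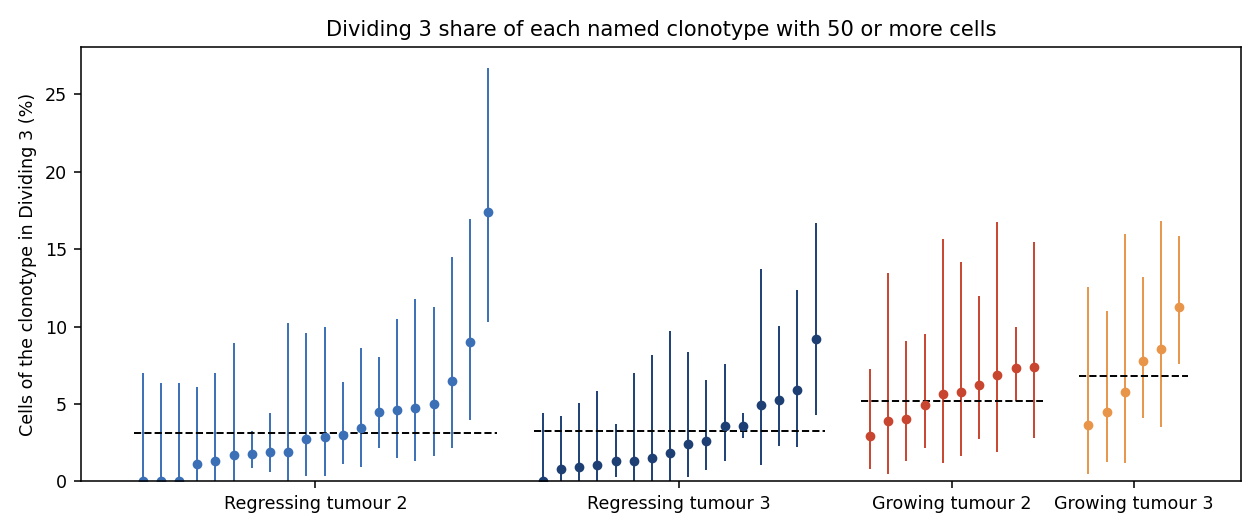
Share of each named clonotype with 50 or more cells that lay in Dividing 3, in percent, ordered by that share within each 5′ tumour library. Points are clonotypes, vertical lines are 95% exact binomial intervals that cover counting error only, and the dashed line is the share of all receptor-labelled cells of the library. Most intervals cross the dashed line, and the highest point is the clonotype at 17.4% in regressing tumour 2.

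A few clonotypes were found in tumours of both states. The leading clonotype of growing tumour 3 had 28 of 249 cells in Dividing 3 there (11.2%, 95% exact interval 7.60 to 15.8) and 5 of 100 in regressing tumour 2 (5%, 1.64 to 11.3). A second had 6 of 81 in growing tumour 2 (7.41%) and 5 of 108 in regressing tumour 2 (4.63%). A further one had 3 of 53 in growing tumour 2 (5.66%) and 6 of 102 in regressing tumour 3 (5.88%). Of all labelled cells 3.13% and 3.22% were in Dividing 3 in regressing tumours 2 and 3, and 5.19% and 6.79% in growing tumours 2 and 3. The first 2 clonotypes were higher in the growing tumour, as its labelled cells were as a whole, and the last was not. No test was made on these counts.

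By similarity group, the groups with 10 or more Dividing 3 cells over the 4 tumours were Groups 1, 2, 3, 4, 5, 8 and 9. Group 3 had 78 of 1120 labelled cells in Dividing 3 (6.96%), most of them, 68 of 914, in growing tumour 2. Group 4 had 34 of 386 (8.81%), with 28 in growing tumour 3, all of them in the leading clonotype. Group 2, which was almost wholly regressing tumour 3, had 86 of 2490 (3.45%), and the cells without a group had 220 of 6139 (3.58%). Group 1 was present in all 4 tumours, with 34 of 1153 (2.95%) and 3 of 275 (1.09%) in regressing tumours 2 and 3 and 19 of 285 (6.67%) and 3 of 85 (3.53%) in growing tumours 2 and 3. Group 8 ran the other way between 2 libraries, with 11 of 114 (9.65%) in regressing tumour 2 and 7 of 241 (2.90%) in growing tumour 2. The ungrouped cells had 3.09% and 3.01% in the regressing and 4.05% and 5.82% in the growing tumours, so the higher Dividing 3 share of growing tumours was also seen outside the groups.

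**Figure D5:**
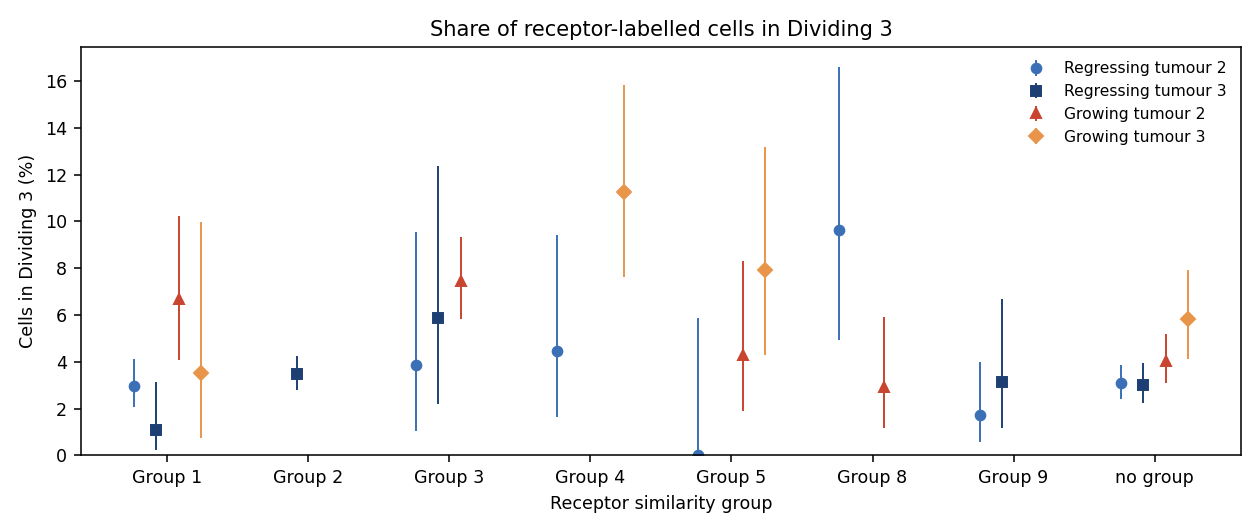
Share of receptor-labelled cells in Dividing 3, in percent, by similarity group and 5′ tumour library, for groups with at least 50 cells in that library. Vertical lines are 95% exact binomial intervals that cover counting error only. Group 4 in growing tumour 3 is highest at 11.2%, and among cells without a group both growing tumours lie above both regressing tumours.

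Labelled Dividing 3 cells of the spleens numbered 33 and 39 in regressing replicates 2 and 3 and 6 in growing replicate 3. The depositors' label for leading spleen clones was carried by 9 of 33 (27.3%), 9 of 39 (23.1%) and 1 of 6 (16.7%). The 95% exact intervals were 13.3 to 45.5, 11.1 to 39.3 and 0.421 to 64.1. In non-dividing, non-naive cells of the same spleens the label was carried by 19.0%, 20.9% and 0.871%. The Dividing 3 value was higher in 3 of 3 spleens, but on few cells, and each interval contains the value it is set against. In Dividing 1 and 2 together it was carried by 8 of 102 (7.84%), 10 of 97 (10.3%) and 2 of 42 (4.76%). In regressing spleen 3 all 9 grouped Dividing 3 cells belonged to Group 2, the group that led Dividing 3 in the regressing tumour of the same number. There 9 of 106 Group 2 cells were in Dividing 3 (8.49%, 95% exact interval 3.96 to 15.5), against 30 of 3761 cells without a group (0.798%), which include the naive cells. Grouped cells of any number made up 23.1% of labelled Dividing 3 cells in this spleen and 19.3% of non-dividing, non-naive cells. In regressing spleen 2, 7 of 205 Group 1 cells were in Dividing 3 (3.41%, 1.38 to 6.91) against 24 of 3871 without a group (0.620%), naive cells included. Grouped cells made up 27.3% of labelled Dividing 3 cells there and 18.05% of non-dividing, non-naive cells. Group 1 in regressing spleen 3 had 0 of 242, with a 95% exact interval up to 1.51%.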

How the data were processed

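Single-cell expression of sorted CD8 T cells was read in 9 libraries. Per the submitters' processing notes reads were processed with Cell Ranger, with version and genome build not given in the sources used here. Deposited for each cell are its count of UMIs and its count of detected genes, which the authors did not normalise. The deposited percent gives UMIs from mitochondrial genes. Per the file headers, each S or G2M score comes from cell-cycle scoring in Seurat, and the phase call followed from the scores in 100% of cells. Cluster names, clonotypes and similarity groups are the authors'. No cell had under 501 genes or over 9.83% mitochondrial UMIs. How the authors handled doublets is not stated in the labels, and none were called. Of 40102 distinct barcodes 988 were seen in 2 or more libraries, carried by 4.68% of Dividing 3 cells and 4.83% of all cells, and 0 shared barcodes carried the same named clonotype. The A223 variant tables were not used.

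Shares and medians were computed per library, which is the replicate. Exact permutation tests compared groups and exact sign-flip tests compared cell sets within libraries, all two-sided. Limma 3.58.1 was run on logit shares, with 0.5 added to each count. Its check on simulated data covered only the form without a block, and no effect of the replicate number was simulated. P-values were adjusted by Benjamini-Hochberg, those of limma over 13 clusters, with a threshold of 0.05. Shares of 1 library have 95% Clopper-Pearson (exact) intervals. These intervals cover counting error only. Deviations of cluster shares from the state means correlated at 0.830, 0.302 and 0.627 between tumours of the same number, so numbers were also used as a block. Other pairs ranged from -0.768 to 0.498, and replicate 1 shares the 3′ kit. The members, lists, clonotypes and tests were chosen with earlier results of these data known. Clonotypes were singled out, without printing their sequences, if among the 3 with most Dividing 3 cells of a 5′ tumour, or with 5 or more such cells or 50 or more cells in at least 2 tumours, and groups if they had 10 or more such cells. Alternatives were single libraries left out, the block, 5′ libraries alone, equal UMI mix, other denominators, G2M-called cells, means, and ratios to non-dividing cells.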

Additional observations from a re-analysis of the deposited data

How the results depend on the processing

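Over 206 alternative values of 22 results, 184 kept their direction and side of the threshold, 21 changed sign and 1 passed the threshold where the exact test could not. Where 3 libraries against 3 or 3 pairs cannot reach the threshold, keeping its side says nothing of stability. The same holds for 2 libraries against 2, for sign-flip tests over 4 libraries and for exact tests with a library left out. The value that passed was limma without a block for the Dividing 3 share of all cells, at 0.67 on the logit scale. With the replicate block in limma the value was the same and the adjusted p 0.0532. Sign-flip tests within pairs of the same number, the other form of the block, cannot give a p below 0.25 with 3 pairs and so bear on no call (differences of 2.91 percentage points for the share of all cells and -1.11 for the share of dividing cells). Tumours and spleens of the same state and number deviated together at -0.193, 0.180 and 0.313, so these shares do not show a pairing and the labels state none. The 3-pair block again cannot go below 0.25, and the p for the share of all cells was 0.25 in place of 0.0286 (differences of 3.78 percentage points for the share of all cells, 4.79 of dividing cells, 3.10 of non-naive cells). Between growing and regressing tumours, the sign changed with an equal UMI mix for the share of dividing cells (1.52 percentage points) and as a ratio to non-dividing cells for median UMIs (-0.0522) and genes (-0.0494). Between tumour and spleen it changed for the median G2M score with means (-0.0113) and an equal UMI mix (-0.0693), and for the S score with means (0.00161). The share of cells with a receptor label changed to -0.751 percentage points without naive and NKT-like cells. The cause was not tested. 

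Leaving out each library in turn, the difference between growing and regressing tumours ranged from 2.54 to 3.51 percentage points for the share of all cells, -2.25 to 0.0280 for the share of dividing cells and -1.45 to 6.96 for the G2M-called share. It ranged from -0.0434 to 0.0524 for the G2M score, -0.00569 to 0.00139 for the S score, 1432 to 4583 for UMIs, 150.0 to 651.5 for genes and -0.0964 to 0.129 for the mitochondrial percent. Between tumour and spleen it ranged from 3.13 to 4.39 percentage points for the share of all cells, 0.751 to 6.04 of dividing cells, 2.46 to 3.83 of non-naive cells and -13.0 to -4.998 for the G2M-called share. It ranged from -0.0417 to 0.0670 for the G2M score, -0.00397 to 0.00075 for the S score, 1200 to 3659 for UMIs, 174.3 to 583.0 for genes and -0.749 to -0.601 for the mitochondrial percent. In the receptor results it ranged from 4.43 to 7.88 percentage points for named clonotypes against non-dividing cells, 1.53 to 3.73 against Dividing 1 and 2, 4.73 to 8.59 for grouped cells and -0.774 to 2.11 for labelled cells. With 52 Dividing 3 cells in regressing tumour 1 and 9 in growing spleen 3, shares within the cluster are least precise there.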
